A study of Mus musculus with 2 samples.

Results

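The regions described here are DPPA2 peaks that lay inside protein-coding genes and were called after adriamycin but not in untreated cells. A peak was included when it came from the adriamycin list, lay on chromosomes 1 to 19, X or Y, had a fold enrichment below 9, overlapped no untreated peak by even 1 bp, and had its summit inside a protein-coding gene and more than 1000 bp from every protein-coding gene end. The rule found 3981 of the 16229 adriamycin peaks, against 23272 peaks in both lists together. Of all adriamycin peaks 10645 overlapped no untreated peak (65.6%), and the 3981 regions were 37.5% of the 10602 of these with a fold below 9. The fold, the absence of an untreated peak and the place in the gene chose these regions, so those values are given as a description and support nothing.

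The data come from chromatin immunoprecipitation with a DPPA2 antibody and sequencing in R1/E cells, a mouse embryonic stem cell line kept on gelatin in medium with leukemia inhibitory factor. The untreated group is labelled wild type and control, the other was given adriamycin for 8 h to induce apoptosis, and each had 1 library. The genotype entry of the treated sample holds its treatment, so its group was read from its title and its genotype is not given separately. The study's title asks about DPPA2 and p53 in apoptosis after DNA damage, and with 1 library a group no difference between the groups could be tested.

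DPPA2 binds DNA in pluripotent cells and in the germline, where it works together with DPPA4. The pair is known for binding CpG-rich promoters in embryonic stem cells and for keeping promoters of developmental and early-embryo genes open to activation. Adriamycin, also called doxorubicin, is a topoisomerase poison that breaks DNA. A long gene body can hold further transcript starts inside it, used by shorter isoforms or by non-coding RNAs, so that a peak inside a gene can still lie at a promoter.

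Sequences are shown for the group of regions that shared a feature the rule did not use, which was a summit at a transcript start inside the gene. The 4 protein-coding starts are those with the highest −log10 q among regions whose summit fell in the 250 bases before such a start, and they were chosen after their values were seen. Each sequence is the 250 bases before the start, 5′ to 3′ on the gene's strand, from RefSeq on GRCm38.p6 (the mm10 build), with every CpG dinucleotide in capitals. The windows are chr11:43836490-43836739 on the minus strand for Adra1b, chr2:27475399-27475648 on the minus strand for Brd3, chr6:99028299-99028548 on the minus strand for Foxp1 and chr4:137681353-137681602 on the plus strand for Rap1gap.
Adra1b: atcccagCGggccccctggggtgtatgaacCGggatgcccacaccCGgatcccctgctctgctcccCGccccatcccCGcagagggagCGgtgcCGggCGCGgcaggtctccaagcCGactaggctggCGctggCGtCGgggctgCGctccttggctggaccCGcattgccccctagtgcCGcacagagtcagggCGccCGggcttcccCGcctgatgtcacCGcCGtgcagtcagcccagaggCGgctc
Brd3: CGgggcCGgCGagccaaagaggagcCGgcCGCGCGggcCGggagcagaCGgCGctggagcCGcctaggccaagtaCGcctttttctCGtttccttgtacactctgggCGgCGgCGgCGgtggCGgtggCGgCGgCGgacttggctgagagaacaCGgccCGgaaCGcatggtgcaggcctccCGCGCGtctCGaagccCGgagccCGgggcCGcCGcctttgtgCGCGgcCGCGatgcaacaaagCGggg
Foxp1: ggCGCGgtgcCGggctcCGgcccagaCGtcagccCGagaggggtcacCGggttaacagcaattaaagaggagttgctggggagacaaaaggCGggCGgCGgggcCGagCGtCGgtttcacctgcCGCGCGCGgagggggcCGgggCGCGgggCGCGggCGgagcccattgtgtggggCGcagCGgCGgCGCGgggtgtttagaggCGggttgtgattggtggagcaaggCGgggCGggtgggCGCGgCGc
Rap1gap: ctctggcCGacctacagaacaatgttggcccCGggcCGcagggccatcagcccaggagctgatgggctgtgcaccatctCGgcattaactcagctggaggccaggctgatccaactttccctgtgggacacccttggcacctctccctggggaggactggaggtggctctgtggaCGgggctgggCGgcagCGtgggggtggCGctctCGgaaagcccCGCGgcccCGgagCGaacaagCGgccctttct

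These windows held 22, 37, 34 and 14 CpG dinucleotides and were 72.8%, 73.2%, 74.0% and 66.8% G or C. Adra1b encodes an alpha-1 adrenergic receptor, and its peak at chr11:43836355-43836652 (fold 6.90, 23 fragments at the summit) peaked 53 bp before the start. Brd3, a reader of acetylated histones, had a peak at chr2:27475086-27475716 (fold 6.55, 21 fragments) with its summit 121 bp before the start. In Foxp1, a forkhead transcription factor, the peak at chr6:99028147-99028606 (fold 6.71, 19 fragments) lay 109 bp before the start and 494339 bp from the first start of the gene. Rap1gap, an activator of the GTPase activity of Rap1, had its summit 10 bp before the start (fold 5.56, 24 fragments).

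Foxp1 and Rap1gap each have another internal start that is shown for comparison. The nearest adriamycin summit was 238108 bp from the other Foxp1 start (chr6:99266516-99266765, minus strand) and 11974 bp from the other Rap1gap start (chr4:137724211-137724460, plus strand).
Foxp1, other start: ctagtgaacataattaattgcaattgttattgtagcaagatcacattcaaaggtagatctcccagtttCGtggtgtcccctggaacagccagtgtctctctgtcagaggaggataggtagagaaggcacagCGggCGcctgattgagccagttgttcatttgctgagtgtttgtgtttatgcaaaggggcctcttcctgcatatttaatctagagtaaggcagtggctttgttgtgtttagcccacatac
Rap1gap, other start: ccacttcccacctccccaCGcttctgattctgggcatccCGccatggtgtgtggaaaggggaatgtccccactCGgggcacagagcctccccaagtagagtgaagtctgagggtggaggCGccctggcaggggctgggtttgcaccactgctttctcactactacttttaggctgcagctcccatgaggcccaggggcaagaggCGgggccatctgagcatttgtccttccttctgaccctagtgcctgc

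These windows held 3 and 5 CpG dinucleotides and were 45.2% and 60.8% G or C. A start of a long non-coding RNA (lncRNA) is shown as well, because it coincided with the peak of highest −log10 q among the regions at lncRNA starts named below. It is the start of Gm46864 inside Slc35d1, a nucleotide-sugar transporter gene, with its window at chr4:103214693-103214942 on the plus strand.
Gm46864: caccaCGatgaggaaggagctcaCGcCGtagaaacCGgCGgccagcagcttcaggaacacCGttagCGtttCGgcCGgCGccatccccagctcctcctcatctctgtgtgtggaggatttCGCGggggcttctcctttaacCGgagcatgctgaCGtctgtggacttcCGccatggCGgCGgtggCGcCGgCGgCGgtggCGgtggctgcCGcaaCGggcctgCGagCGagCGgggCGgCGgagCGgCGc

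The window held 31 CpG dinucleotides, and the summit of the Slc35d1 peak at chr4:103214751-103215126 lay 0 bp from the lncRNA start (fold 7.60, −log10 q 13.5, 25 fragments, 95% Poisson interval 16.2 to 36.9). The same summit was 233 bp downstream of an internal start of Slc35d1 itself, which lies outside the peak.

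The 3981 regions were modest and narrow peaks. Fold enrichment is the authors' ratio of summit to local background, and its median was 4.62 (quartiles 4.11 and 5.28, range 2.79 to 8.98). The deposited −log10 q, the significance of a peak within its own library, had a median of 4.35 (quartiles 3.27 and 5.70), and 1437 regions (36.1%) reached 5. A fold of at least 5 was reached by 1382 regions (34.7%), of at least 6 by 421 (10.6%), and of at least 8 by 33.

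The number of fragments over the summit was recovered from the fold and the p-value of each peak. Its median was 13 (quartiles 11 and 16, range 6 to 37), over a local background with a median of 1.98 fragments. The median width was 276 bp. Peaks inside genes that were shared with the untreated list, 1668 in number, were taller and wider, with a median fold of 5.92, 18 fragments and 395.5 bp. The 514 untreated peaks inside genes with no adriamycin counterpart had a median fold of 4.55 in their own list and 13 fragments, and 20.3% of the 7043 untreated peaks overlapped no adriamycin peak.

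The nearest untreated summit was a median of 95619 bp away (quartiles 34859 and 219979). Only 99 regions (2.49%) had one within 1000 bp and 201 (5.05%) within 5000 bp. The signal of the untreated library at these positions is not part of a peak list, so a site just under the caller's threshold and a site with no signal cannot be told apart. In the untreated list the smallest summit held 7 fragments and 31.0% of peaks held fewer than 13, while 1789 of the regions (44.9%) held at least the untreated median of 14.

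The limits of the rule cut through a continuous range of peaks. The highest fold inside was 8.98, in F13a1 (coagulation factor XIII), and the lowest outside was 9.01, in Cd200r2. In all, 13 further peaks met the other conditions with a fold of 9 or more, up to 10.6 in Oxr1. A peak in Nfkb1, an NF-kappaB subunit, lay 1001 bp from the gene end, and one in the overlapping pair Strn3 and Ap4s1 lay 997 bp from it. In Pgr, the progesterone receptor gene, the region adjoined an untreated peak with 0 bases between them, and in Sh3rf3 a left-out peak overlapped its untreated neighbour by 1 bp.

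Gene bodies, as defined by the rule, covered 988 Mb, or 36.3% of the sequence considered. The share of adriamycin-only peaks that fell in them was 37.5% (95% Clopper-Pearson interval 36.6 to 38.5). The same share was 29.9% (28.7 to 31.1) for peaks shared with the untreated list and 35.9% (33.5 to 38.5) for untreated-only peaks. The interval for shared peaks overlaps neither of the others and lies below the share of the sequence, while that for adriamycin-only peaks lies just above it and that for untreated-only peaks includes it. The place of the adriamycin-only share turned with the peaks kept. It was 32.0% (30.6 to 33.4) with a fold of at least 5 and 30.2% (29.2 to 31.3) with a local background under 2 times the genome-wide value, both below the 36.3% of the sequence and overlapping the interval of all shared peaks. With a −log10 q of at least 5 it was 36.0% (34.5 to 37.5) and with lists of equal length 35.7%, and both intervals include the share of the sequence. The shared peaks and the sequence were not filtered in these ways, so the comparisons are not like for like. The median local background was 1.98 fragments in the regions and 1.40 in adriamycin-only peaks between genes, so a background limit takes out more peaks inside genes.

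A region lay in 3019 of 21883 protein-coding genes (13.8%). Most of these genes, 2310, held 1 region, 488 held 2, 144 held 3, 49 held 4 and 28 held 5 or more. Genes with a region were long, with a median span of 61131 bp against 17170 bp for all genes. The share of genes with a region rose from 2.65% of those under 10 kb to 74.3% of those over 500 kb.

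Per Mb of gene body the order was the reverse. Genes under 10 kb held 11.5 regions per Mb (10.0 to 13.2), genes of 20 to 50 kb held 6.03, genes of 100 to 200 kb held 3.98, and genes over 500 kb held 2.11 (1.91 to 2.33). Shared peaks fell in the same order, from 3.61 to 1.13 per Mb. In these ranges a peak in overlapping genes counted once for each gene, so the 3981 regions gave 4119 counts. The 404 counts over 500 kb include the same 15 peaks for each of Gm37013, Gm38666 and Gm38667. These overlapping predicted models held 2.06 to 2.10 regions per 100 kb, which raises the density of that range. Long genes thus more often held a region but had fewer regions per Mb.

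**Figure D1:**
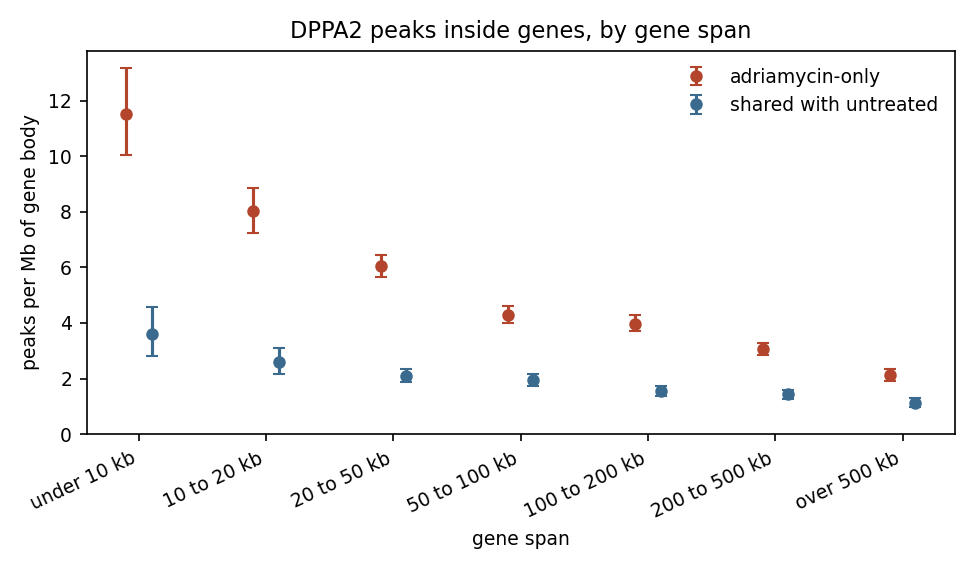
Peaks per Mb of gene body (y axis) by the span of the gene (x axis), for adriamycin-only regions and for shared peaks, with bars for 95% Poisson intervals (counting error only). Adriamycin-only regions fell from 11.5 per Mb in genes under 10 kb to 2.11 in genes over 500 kb. A peak in overlapping genes counts once for each gene.

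The density also fell with distance from the gene ends. Short genes have no sequence far from an end, so this order and that by span are tied and were not separated. Between 1000 and 2000 bp from an end there were 460 regions, or 12.1 per Mb. It was 7.12 per Mb at 2000 to 3000 bp, 4.36 at 10000 to 20000 bp and 1.82 (1.64 to 2.01) beyond 100000 bp. Shared peaks had 4.20 per Mb in the closest interval and 1.17 in the farthest.

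Along the gene the 3′ side was the denser one. For the 3056 regions in a single gene of known strand, the gene was divided into 10 equal parts from 5′ to 3′. The first part held 3.96 per Mb (3.49 to 4.47), the second 3.32, the fifth 3.48 and the last 5.82 (5.26 to 6.44). Shared peaks went from 1.93 per Mb in the first part through 1.36 in the second to 2.54 in the last, so the 3′ side was the denser one for them too.

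**Figure D2:**
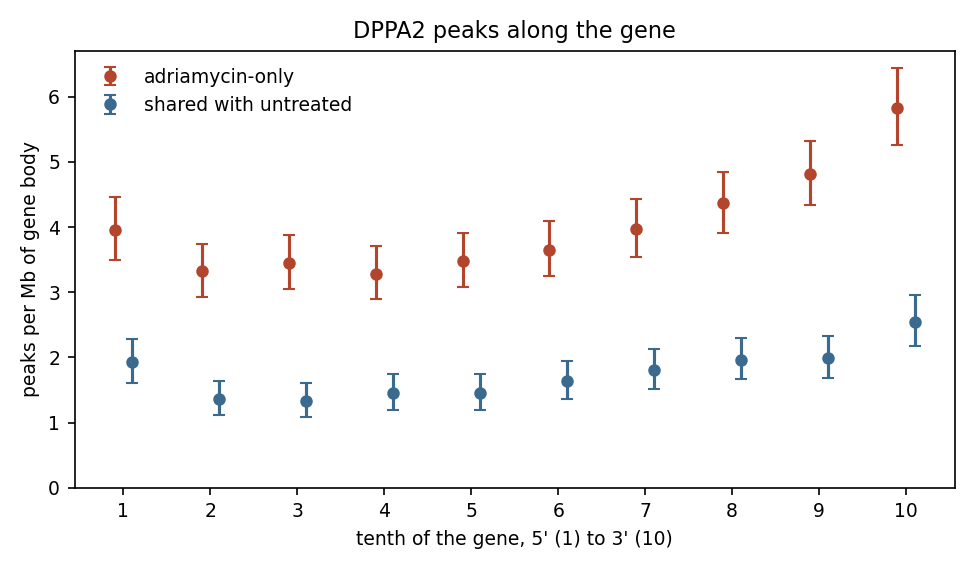
Peaks per Mb of gene body (y axis) in 10 equal parts of the gene from its 5′ end (1) to its 3′ end (10), leaving out 1000 bp at gene ends, with 95% Poisson intervals. Adriamycin-only regions were lowest in the fourth part (3.28 per Mb) and highest in the last (5.82 per Mb).

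Autosomes differed as well. Chromosomes 11, 8 and 4 held 5.85, 5.78 and 5.56 regions per Mb of gene body, and chromosome 13 held 2.75. Chromosome X held 51 regions, or 1.17 per Mb (0.868 to 1.53), and chromosome Y held 1. Shared peaks on chromosome X were at 0.480 per Mb, against 1.69 over all chromosomes. The sex-chromosome copy number of the line was not used here.

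The clearest feature that the rule did not use was the set of transcript starts inside genes. The RefSeq promoter table places 3881 protein-coding transcript starts in these gene bodies, in 2929 genes. A summit lay within 1000 bp of such a start in 279 regions (7.01%, 6.23 to 7.85), while those positions make up 0.663% of gene-body sequence, a 10.6-fold difference. Within 250 bp there were 158 regions (3.97%) against 0.182% of the sequence, a 21.8-fold difference.

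The other classes of peaks inside genes did the same. The share within 1000 bp of an internal start was 6.89% (5.73 to 8.22) of shared peaks and 7.98% (5.78 to 10.7) of untreated-only peaks. The 3 intervals overlap, so a place at internal starts was not particular to the adriamycin-only regions. Regions at internal starts had a median fold of 4.51 against 4.64 for the others, and a median of 13 fragments in both.

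Summits lay mostly just downstream of the start. Of the 279 regions 221 were downstream (79.2%, 74.0 to 83.8) and 58 upstream. The number of summits per 100 bp was 17.6 in the 250 bp before the start, 44.8 in the first 250 bp after it, 32.4 in the next 250 bp and 5.6 from 500 to 1000 bp. Shared peaks were downstream in 85.2% (77.4 to 91.1). The rule left out 1000 bp at gene ends, and some internal starts lie close to that limit. The Cnr1 summit, for example, was 1002 bp from the gene start. The counts were not divided by the sequence left on each side of the starts, so part of the difference can come from the rule.

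**Figure D3:**
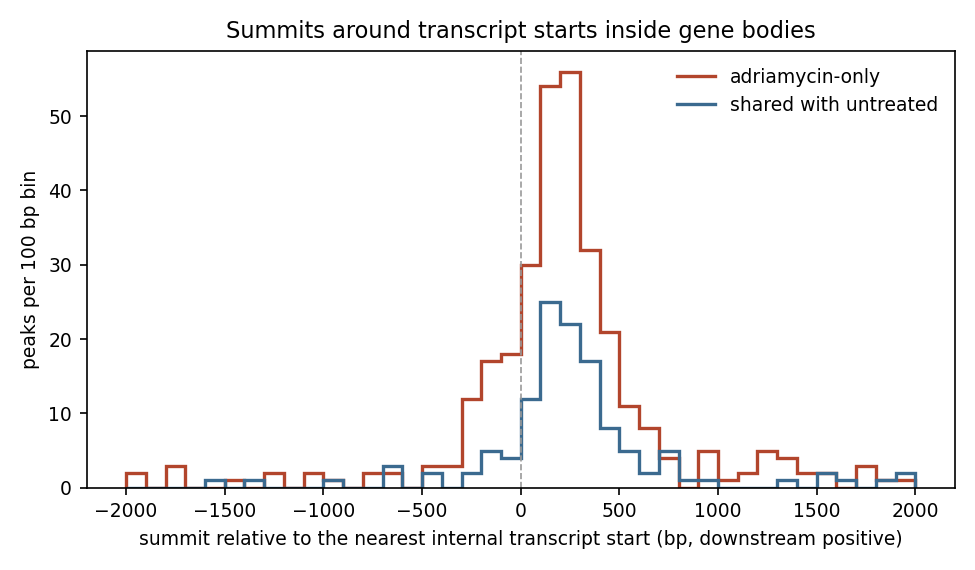
Number of peak summits per 100 bp (y axis) by distance from the nearest protein-coding transcript start inside a gene body (x axis, downstream positive, start at the dashed line). Adriamycin-only regions were most numerous 200 to 300 bp downstream (56 summits), and shared peaks 100 to 200 bp downstream (25). Counts are not divided by the sequence that the rule left on each side.

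Starts with a region were rich in CpG. Of the 3881 internal starts 171 (4.41%) had a region within 250 bp, and the 300 bases around these starts (250 before and 50 after) held a median of 29 CpG dinucleotides (quartiles 19 and 38). The 3644 starts with no adriamycin peak held a median of 7 (3 and 18). Their median G or C content was 68.7% against 54.0%, and all 32850 windows of the promoter table with a count had a median of 7 CpG dinucleotides.

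The share of starts with a region rose with every step in CpG count. It was 0 of 330 starts with 0 or 1 CpG, which allows a share of up to 0.909% by the limit of 3 counts (Clopper-Pearson upper bound 1.11%), and 0.114% with 2 to 4. It was 1.31% with 5 to 9, 3.26% with 10 to 14, 6.92% with 15 to 24 and 14.2% (11.7 to 16.9) with 25 or more. At 25 or more, shared peaks were at 6.81% of starts, against 0 of 330 at the lowest step. The Foxp1 pair printed above shows the contrast within 1 gene, with 34 CpG dinucleotides at the start that had a peak and 3 at the start that had none.

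**Figure D4:**
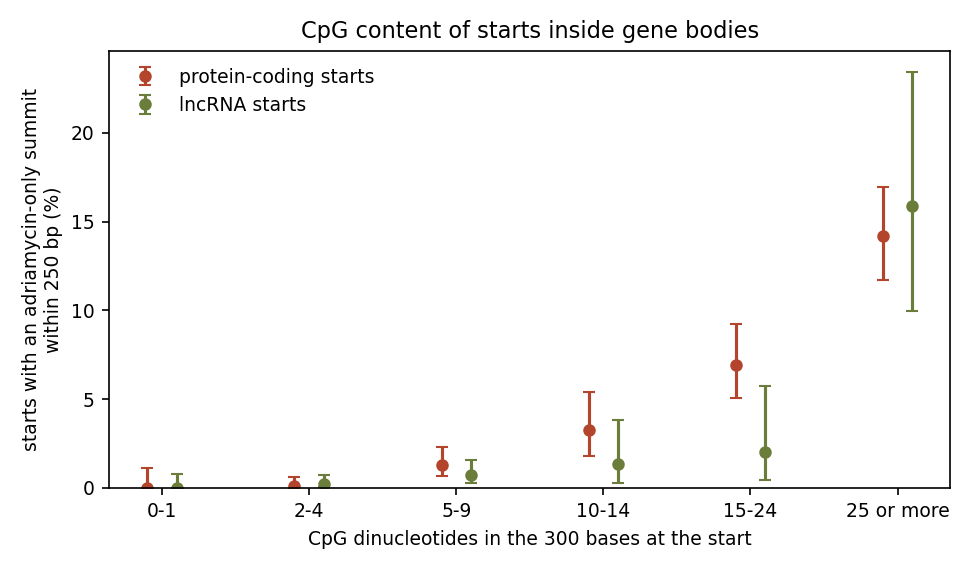
Share of transcript starts inside gene bodies with an adriamycin-only summit within 250 bp (y axis, percent) by the number of CpG dinucleotides in the 300 bases at the start (x axis), for protein-coding and lncRNA starts, with 95% Clopper-Pearson intervals. The share rose from 0 to 14.2% at protein-coding starts and from 0 to 15.9% at lncRNA starts.

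Other motifs were searched in the same windows on both strands. The windows end 50 bases after the start. Region summits numbered 44 in the 250 bp before a start and 112 in the first 250 bp after it. Many of the downstream summits lay beyond the windows, with 54 at 100 to 200 bp after the start. The shares below therefore describe the windows at the starts, and the sequence under the peaks was not searched as such. CACACACA, which reads TGTGTGTG on the other strand, was in 2 of the 171 windows with a region (1.17%, 0.142 to 4.16), in 4.94% of those with no adriamycin peak and in 4.09% of all windows in the table. The p53 decamer, the unit of the p53 response element, was in 8 of 171 (4.68%, 2.04 to 9.01), in 8.21% of those with no adriamycin peak and in 8.36% of all windows. Both shares were lower in the windows with a region, which were also richer in G and C, and the interval for CACACACA lies below the 4.94% but includes the 4.09%. The interval for the p53 decamer includes both of its comparison shares.

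Non-coding starts inside genes showed the same order. A lncRNA start lay within 1000 bp of 72 regions (1.81%) against 0.517% of the sequence and 34 of 2790 lncRNA starts (1.22%) had a region within 250 bp. With 25 or more CpG dinucleotides 20 of 126 lncRNA starts did (15.9%, 9.97 to 23.4). Besides Gm46864 in Slc35d1, the closest were 2900005J15Rik in Prkag2 (4 bp), Gm34765 in Aqp6 (5 bp), Gm5563 in Tbx5 (6 bp), Gm40474 in Acot3 (14 bp) and Gm51487 in Igf1r (15 bp). The promoter windows of lncRNAs and of genes that overlap them can share sequence, so these counts are not separate from those above.

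MicroRNA genes were near few regions. An end of a microRNA gene lay within 1000 bp of 24 regions (0.603%, 0.387 to 0.896) against 0.134% of the sequence, and of 5 shared peaks (95% interval 0.0974 to 0.698%). The regions in Cul4a, Tlcd1, Slit3, Dock6, Jag2 and Cnot3 lay 19 to 81 bp from Mir7065, Mir7653, Mir218-2, Mir7083, Mir6941 and Mir3572. Slit3, a guidance ligand of Robo receptors, is the host of Mir218-2, and its only region, at chr11:35616753-35617025 (fold 5.60, 14 fragments), peaked 49 bp from the end of the microRNA gene. The mature sequences are shown because the peak spans them, from RefSeq on GRCm38.p6 at chr11:35616840-35616860 and chr11:35616882-35616903 on the plus strand, with the seed (bases 2 to 8) in capitals.
mmu-miR-218-5p: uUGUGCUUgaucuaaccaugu
mmu-miR-218-2-3p: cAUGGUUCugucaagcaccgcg

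The 2 arms have different seeds. No expression of this or any other RNA was measured in these files.

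The regions of highest −log10 q lay in genes of many kinds. Ptprs, a receptor-type tyrosine phosphatase that binds proteoglycans at synapses, had the highest, at chr17:56446914-56447559, with a fold of 8.64, a −log10 q of 21.4 and 37 fragments (26.1 to 51.0). Tet3, an enzyme that oxidises 5-methylcytosine, had its region at chr6:83404429-83404905, 42284 bp from the nearest gene end, with a fold of 8.82 and 32 fragments (21.9 to 45.2).

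Others among the highest were Trak1 (adaptor of kinesin on mitochondria), Eya2 (transcriptional coactivator with phosphatase activity), Tmem198, C1qbp (mitochondrial matrix protein), Nr3c2 (mineralocorticoid receptor) and Trub2 (pseudouridine synthase). Their −log10 q ran from 16.5 in Trak1 to 15.5 in Trub2 and their summits held 25 to 33 fragments. None of the 8 regions named here lay within 1000 bp of an untreated summit. The closest was the Ptprs region, 12706 bp from one, and the farthest was the Nr3c2 region, 717602 bp from one.

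The genes with the most regions were long. Gm37013, Gm38666 and Gm38667 had 15 each, but these are overlapping predicted models on chromosome 18 that hold the same 15 peaks and span 54 protocadherin genes, which encode neuronal adhesion molecules. Of the 15 peaks 13 lay inside a protocadherin gene, with 13 different nearest genes, between 1247 and 1845 bp from a gene end. Folds ran from 3.57 to 6.02 over the 15. Pcdha7, Pcdha10, Pcdha12, Pcdhb4, Pcdhb5, Pcdhb6, Pcdhb9, Pcdhb11, Pcdhb12, Pcdhb14, Pcdhb18, Pcdhb20 and Pcdhgb4 were the genes with the nearest end for these 13.

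Rbfox3 and Camta1 held 9 regions each. Rbfox3, which encodes the neuronal splicing factor NeuN, spans 421838 bp on chr11:118489760-118911597, and its regions had folds of 3.52 to 5.30 and were spread from 53081 to 408497 bp from the gene start. Camta1, a transcription activator that binds calmodulin, spans 802246 bp on chr4:151059523-151861768. Of its 9 regions 5 lay between 689699 and 761241 bp from the gene start, and the others lay nearer to the start. Both genes also held 1 shared peak inside.

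Trak1 and Nrxn2 held 8 regions each in spans of 177418 and 114462 bp. Nrxn2, a presynaptic adhesion receptor, had no untreated peak at all inside it, and the nearest untreated summit to any of its regions was 435460 bp away. Its folds ran from 4.09 to 5.43 and its summits held 12 to 16 fragments. Trak1 likewise held no untreated peak, with folds of 4.15 to 7.99 and 11 to 30 fragments.

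**Figure D5:**
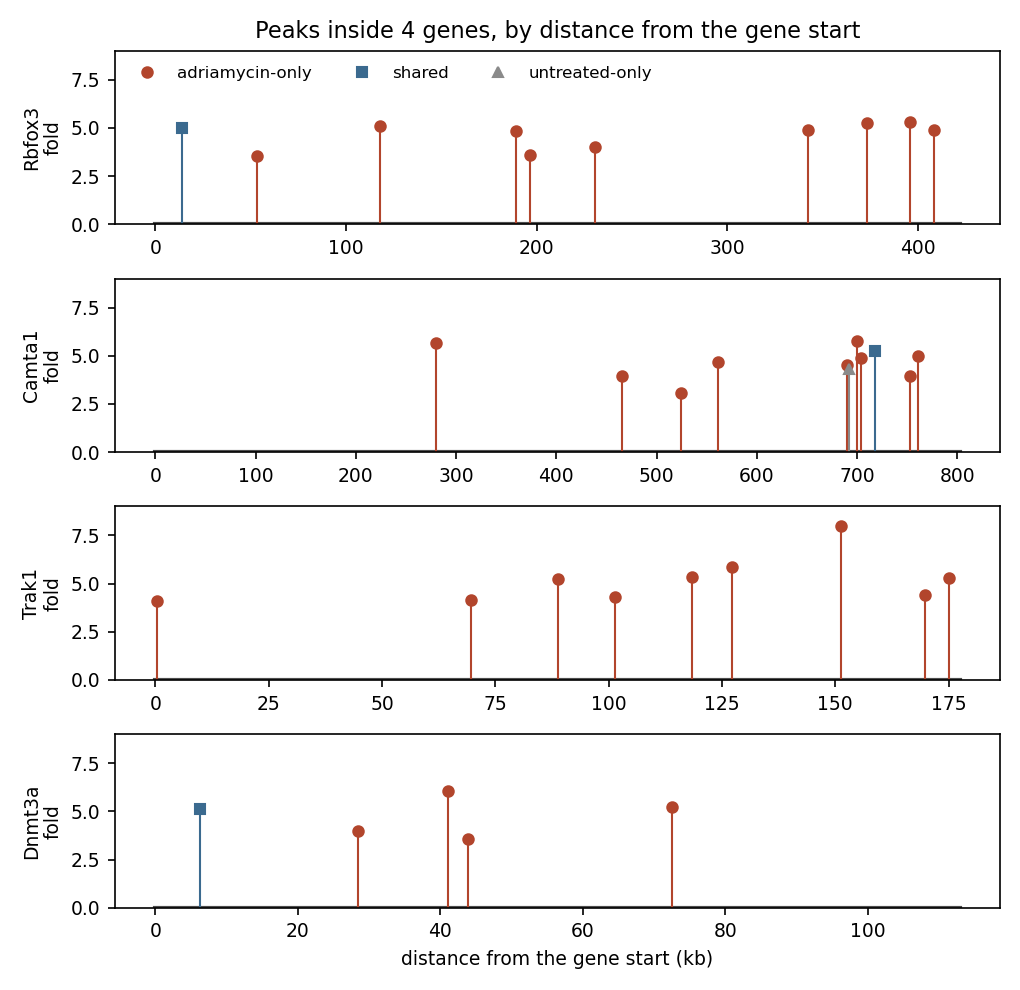
Peaks inside Rbfox3, Camta1, Trak1 and Dnmt3a by distance from the gene start in kb (x axis), with the authors' fold (y axis), by class. The grey line at 0 is the gene, untreated-only peaks carry the fold of their own list, and the first Trak1 peak, 0.383 kb from the start, is a gene-end peak and not counted among its 8 regions.

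Per length, short genes led among those with 3 or more regions. Each of the 5 leading genes held just 3, so their order is that of their gene-body length and the limit of 3 favours short genes. Mvk, the mevalonate kinase of sterol synthesis, held 3 in 14326 bp of gene body, or 20.9 per 100 kb. Akt1, a kinase of growth signalling, held 15.7 per 100 kb, Jag2, a Notch ligand, 15.0, Ace, the angiotensin-converting enzyme, 15.0, and Man2a2, an enzyme of N-glycan processing, 14.7. The 3 Mvk regions lay 12370 to 14801 bp from the start of the 16328 bp gene, with folds of 3.81 to 4.56, so all were in its 3′ part.

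Neighbouring regions in a gene were usually far apart. Among 1049 neighbouring pairs the median gap between summits was 31011 bp, and 115 pairs lay within 5000 bp. The closest pairs were in Rap1gap2 (329 bp), Necab1 (363 bp), Baz1a (386 bp), Cnksr2 (415 bp) and Stox2 (433 bp). Both peaks of such a pair are separate entries in the authors' list.

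In each of the 7 span ranges the share of genes that held a shared peak was higher among those with a region. In genes of 50 to 100 kb a shared peak lay inside 18.4% (15.3 to 21.8) of those with a region and 9.31% (8.06 to 10.7) of those without. In genes of 200 to 500 kb the shares were 36.6% and 24.3%. Adriamycin peaks at the gene ends went the other way at 50 to 100 kb, with 20.6% (17.4 to 24.2) of genes with a region against 26.5% of those without, while at 20 to 50 kb the shares were 18.5% and 18.4%.

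Gene groups were compared by the share of their genes with a region, beside 13.8% of all genes, and by the number of regions beside the number that the mean density of their span ranges would give. The second value matters because span alone changes the share so strongly. A region in overlapping genes counts for each. With 1 library no group was tested, and a group far from its span value is described and not called.

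p53 target genes had a region in 5 of 42 (11.9%, 3.98 to 25.6), with 7 regions beside 5.45 at the density of their spans. Ercc5, a nuclease of nucleotide excision repair, had a fold of 6.34 and 17 fragments. Sulf2, a heparan sulfatase, had 2 regions, the stronger with a fold of 5.13. Sesn2, a stress sensor upstream of TORC1, had 1 (fold 5.20), and Trp73, a p53 family member, had 2 (folds up to 5.11) that were 2887 and 7722 bp from untreated summits.

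Damage signalling and repair genes had a region in 9 of 48 (18.8%), with 10 regions beside 13.1. Prkdc, the catalytic subunit of the end-joining kinase, had a fold of 6.61, the Blm helicase gene 6.05, the end-joining gene Xrcc4 5.92 and Parp1, which makes poly(ADP-ribose) at breaks, 5.02. Apoptosis genes had a region in 1 of 42, with 1 region beside 7.17 (Poisson interval of the count 0.0253 to 5.57). The 1 gene was Dapk2, a death-associated kinase, with a fold of 6.12 and 16 fragments. These counts leave out peaks at gene ends. An adriamycin peak at a gene end was present in 10 of the 42 apoptosis genes and in 3508 of all 21883 genes.

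Pluripotency genes had a region in 5 of 38 (13.2%), with 10 regions beside 6.58. Dnmt3a, a de novo DNA methyltransferase, held 4 of them, at 28444, 41125, 43943 and 72554 bp from its start with folds of 4.01, 6.06, 3.57 and 5.23. Tet3 held 2, Esrrb 2 (up to 5.21) and Nanog 1, at 1297 bp from the gene end with a fold of 4.10 and 10 fragments. Tfcp2l1, a factor of naive pluripotency, was the fifth. Germline and meiosis genes had a region in 7 of 40 (17.5%), with 9 regions beside 9.33. The strongest were Tdrd9 and Piwil1, both of the piRNA pathway, the synaptonemal complex gene Sycp1 and Tex14, with folds of 6.18, 5.86, 6.58 and 5.90.

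Wnt signalling genes had a region in 20 of 60 (33.3%, 21.7 to 46.7), with 28 regions beside 15.5, and the Poisson interval of the count was 18.6 to 40.5. The Wnt3a region at chr11:59284111-59284387 had a fold of 7.59 and 23 fragments (14.6 to 34.5). Axin2, a negative regulator and target of the pathway, held 2 regions (up to 5.79), the receptor gene Lgr5 1 (6.20) and the ligand gene Wnt3 1 (5.41).

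Chromatin regulators had a region in 26 of 82 (31.7%), with 38 regions beside 28.7. Hdac5, a class II histone deacetylase, had a region with a fold of 6.07 and 29 fragments (19.4 to 41.6), and Tet3, Brd3 and Dnmt3a were the others of highest −log10 q. Zinc finger genes named Zfp had a region in 53 of 394 (13.5%), with 79 beside 63.6.

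Very long genes of fragile sites had a region in 23 of 28 (82.1%), the highest share of the 20 groups. They held 60 regions beside 76.6 at the density of their spans, and the Poisson interval of the count, 45.8 to 77.2, includes that value. The 76.6 rests mostly on the density over 500 kb, which counts the same 15 peaks for each of Gm37013, Gm38666 and Gm38667. Fhit, which spans 1611970 bp, held 1 region (fold 7.89) and Dlg2, which spans 1973059 bp, held 1 (7.89) that was 499 bp from an untreated summit. Pard3b held 1 (7.31) and Foxp1 1 (6.71). Synaptic adhesion genes had a region in 29 of 54, with 71 beside 73.1, and among them Tenm1 held 6, Cadm2 4 and Cntn5 2, with folds up to 8.88, 8.33 and 8.33.

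The other groups of long genes lay near the value of their spans or above it. Collagen, laminin and integrin genes had a region in 30 of 86, with 46 beside 34.7, led by Col16a1 (31 fragments, 21.1 to 44.0), Itgb6, Col6a1 and Itgav. The Itgav region, in the integrin alpha-V gene, lay 358 bp downstream of an internal start.

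Genes with names of calcium, sodium and potassium channels had a region in 50 of 132, with 68 beside 55.0. The names take in Kcnj, Kcnk, Kcnn and Kcnip genes, so not all are voltage-gated channels. In Kcnh2, a cardiac potassium channel gene, the stronger of 2 regions held 27 fragments (17.8 to 39.3). Kcnq1, Cacna1a and Kcna1 followed it in −log10 q. Myosin, kinesin and dynein genes had a region in 35 of 95, with 48 beside 41.0, led by Dnah7b, Myo9b, Myh3 and Dnah8. Receptor-type tyrosine phosphatase genes had a region in 12 of 20, with 22 beside 19.3, and after Ptprs came Ptprq, Ptprt and Ptprk.

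Phosphodiesterase and adenylyl cyclase genes had a region in 13 of 34, with 22 regions, led by Pde7b, Pde4d, Pde8a and Pde1c. Glutamate and GABA receptor genes had a region in 20 of 47, with 36 beside 34.3, led by Grin2d, Gria3, Grid1 and Gabra3. Guidance genes had a region in 26 of 57, with 34 beside 35.5. Among them Ephb6, an ephrin receptor, had a region just before an internal start with a fold of 6.55, and Slit1, Unc5a and Plxnc1 followed.

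Groups below the value of their spans included Adam, Adamts and Adamtsl genes, with a region in 9 of 58 and 10 regions beside 18.7. Not all of these genes encode active proteases. Adamtsl1, Adamts10, Adamts7 and Adam22 had the highest −log10 q among them, and the Adamts7 and Adam22 regions lay 432 and 233 bp from untreated summits. Olfactory and vomeronasal receptor genes, most of them short and silent outside sensory tissue, had a region in 7 of 1459 (0.480%), with 7 regions beside 27.5 (Poisson interval of the count 2.81 to 14.4). Their median span was 951 bp, too short for most to have any gene body under the rule, which bears on the share of 0.480%. The value of 27.5 already counts only the gene body that these genes have.

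Dppa2, Dppa4 and Trp53 held no region and no other peak of either list. The nearest adriamycin summit was 84632 bp from Dppa2, 58093 bp from Dppa4 and 24272 bp from Trp53.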

How the data were processed

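DPPA2 ChIP-seq was deposited as 1 peak list per library (1 untreated, 1 adriamycin for 8 h). Per the submitters' processing notes, the build was mm10 and the tools were MACS3 3.0.0b1, Bowtie2 2.5.1, SAMtools, FastQC 0.12.1 and deepTools 3.5.1. How peaks were called and filtered, and whether an input served as control, is not given in the sources used here. The fold enrichment is the authors' ratio of summit to local background, as deposited. Each summit's −log10 p and −log10 q were deposited with it. The deposited score is the authors' −log10 q scaled to a whole number and was not used. Summits were placed by the deposited offset in bp within each peak.

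Contigs and the mitochondrial genome were left out, with 126 untreated and 142 adriamycin peaks. Overlap meant at least 1 bp. The fragments at each summit were the whole number that gave both the fold and the −log10 p (within 0.001, pseudocount 1, Poisson tail), found for 99.9% of the peaks of each list. Genes, transcript starts and sequences came from RefSeq tables of GRCm38.p6, the mm10 build, with 21883 protein-coding genes. Of these 19252 had sequence beyond 1000 bp from every gene end, which is the gene body here. Exons, introns and peak sequence outside the promoter windows were not analysed here. The value at the density of spans is the sum over a group's genes of their gene-body length times the mean density of regions in genes of their span range.

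Intervals are 95%, Clopper-Pearson for shares and Poisson for counts, and cover counting error only. With 1 library a group no p-value was computed. The regions, the 20 gene groups and the comparisons were chosen with earlier results of these data known. Named genes are the 10 regions of highest −log10 q, the 8 genes with most regions, the 5 densest among those with 3 or more, up to 4 per group by −log10 q, those nearest each limit, the 5 closest pairs, Dppa2 and Dppa4, and the regions nearest non-coding genes. Trp53, Tfcp2l1, Oxr1, the genes with printed sequence other than Slc35d1, and the protocadherin genes were named after their values were seen. Some named genes and 1 gene group are not reported here. The scripts were tested on simulated peaks and ran on Python 3.11.15 with numpy 2.4.6, pandas 2.3.3, scipy 1.17.1 and matplotlib 3.10.9.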

Additional observations from a re-analysis of the deposited data

How the results depend on the processing

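No paired analysis was possible because each group had 1 library. Of 72 values (8 results under 9 alternatives) 39 stayed within their counting interval or within 1.5 times the count, and 33 moved, 26 of them to a lower value. The share of regions at internal starts was added after the data were seen. With a −log10 q of at least 5 there were 1437 regions in 1266 genes, 1.45 per Mb, with 36.0% of adriamycin-only peaks inside genes, a median gene span of 76543 bp, 189 genes of the fixed groups (397 before, a gene counted once per group) and 5.92% of regions within 1000 bp of an internal start (7.01% before). With a fold of at least 5 the same values were 1382, 1228, 1.40, 32.0%, 99594 bp, 182 and 5.93%, and the nearest untreated summit was a median of 114882 bp away. With the adriamycin list cut to the length of the untreated one they were 1067, 971, 1.08, 35.7%, 77139 bp and 141. Beyond 2500 bp from gene ends the density was 3.64 per Mb, the share inside genes 32.0%, the span 72203 bp and the share at internal starts 5.87%. Without predicted gene names the share inside genes was 36.6%. This setting and the 2500 bp setting leave less gene-body sequence, so their shares cannot be set beside the 36.3% of the sequence. With a local background under 2 times the genome-wide value there were 2128 regions in 1741 genes, 2.15 per Mb, 30.2% inside genes, a median span of 102272 bp, 243 genes of the fixed groups and a median of 127777 bp to the nearest untreated summit. Dropping the upper fold limit, and both other definitions of a shared peak, moved none of the 8 results. Of 180 values for single gene groups 59 moved, all to lower counts. Where an alternative keeps fewer peaks the lower counts follow from its construction; the cause of the changes in span, distance and share was not tested. The depth of the libraries is unknown, and a summit of 13 fragments limits how well 1 region is measured.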
